A study of Homo sapiens with 6 samples.

Results

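NRF2, the product of NFE2L2, drives a set of antioxidant and glutathione genes, and 9 genes of that pathway were followed in HCT116 cells with and without the histone methyltransferase MLL4. The genes were taken by name and by no cut on their values, though earlier results of these data were known. They were the regulators NFE2L2 and KEAP1, and the quinone and heme enzymes NQO1 and HMOX1. The others were the glutathione genes GCLC, GCLM and GSR, and the thioredoxin system genes TXNRD1 and SRXN1. Each of the 9 symbols matched 1 row of the deposited table of 59715 gene IDs, and all 9 were among the 14543 genes with enough counts to be tested. HCT116 is an established human colorectal carcinoma line. Poly(A) RNA was sequenced from 3 libraries of wild-type cells (MLL4WT) and 3 of MLL4 knockout cells (MLL4KO), both grown in the same medium with no treatment named. The labels do not say whether the knockout is 1 clone, or whether each library is a culture of its own, so the p-values measure only the spread between these samples, which may be technical.

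NRF2 is a transcription factor that KEAP1 holds in the cytoplasm and hands to a CUL3 ubiquitin ligase, which keeps its level low. Oxidants and electrophiles modify cysteines of KEAP1, NRF2 then escapes degradation, enters the nucleus, pairs with a small MAF protein and binds the antioxidant response element of its targets. The targets detoxify quinones, make and recycle glutathione, and reduce thioredoxin and oxidised peroxiredoxins, and NRF2 is mostly controlled at the level of the protein, which these libraries do not measure. MLL4 places methyl marks on lysine 4 of histone H3 at enhancers.

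Library totals ranged from 6829400 to 19736751 counts, and the shallowest library was MLL4WT replicate 1. Over a group, the 9 genes had between 827 (HMOX1) and 24305 (TXNRD1) counts. KMT2D, the gene usually meant by MLL4, measured 240, 231 and 234 CPM in wild-type cells, against 230, 243 and 225 CPM in the knockout (CPM, counts scaled to library size with TMM factors). The groups overlapped (log2 -0.01, adjusted p = 0.832 by edgeR), and where in the gene the knockout lies is not stated, so this does not check the labels. KMT2B, which has also carried the name MLL4, fell 1.42-fold (adjusted p = 2.33e-05 by edgeR). Of 10 colorectal epithelial markers, EPCAM, CDH1, CDX2 and the keratins KRT8, KRT18 and KRT19 were present, CDX1 and CEACAM5 had no count, and VIL1 and CEACAM6 were near 0. Of the 6 tested markers 4 fell, beside 21.6% of all tested genes. The summed level of this list ran from 1607 to 1670 CPM in MLL4WT and from 1082 to 1105 CPM in MLL4KO, and its part in the results that follow was not tested. Summed markers of fibroblasts (30 to 35.4 CPM over the 6 libraries), immune cells (3.86 to 8.39 CPM) and endothelium (1.9 to 3.94 CPM) were low.

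Of the 9 transcripts 5 were lower without MLL4 and 1, NQO1, was higher. TXNRD1 fell most, NFE2L2, GSR, SRXN1 and GCLM fell by less, and KEAP1, HMOX1 and GCLC were not called. In the edgeR quasi-likelihood test, fitted over all 14543 genes, 41.4% of genes passed an adjusted p of 0.05, 19.8% upward and 21.6% downward, so 6 of 9 called genes stand beside a background in which a call is common. The 2 groups were fully apart in 7 of the 9 genes, and in 52.5% of all tested genes. The median log2 fold change of the 9 was -0.19, beside -0.0044 over all tested genes. In bulk RNA, fewer cells of a kind and less RNA per cell cannot be told apart. With total counts alone as the scaling, 2 of the 9 rose and 4 fell, while the count over all genes went from 2885 that rose and 3136 that fell to 3706 and 2394.

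**Figure D1:**
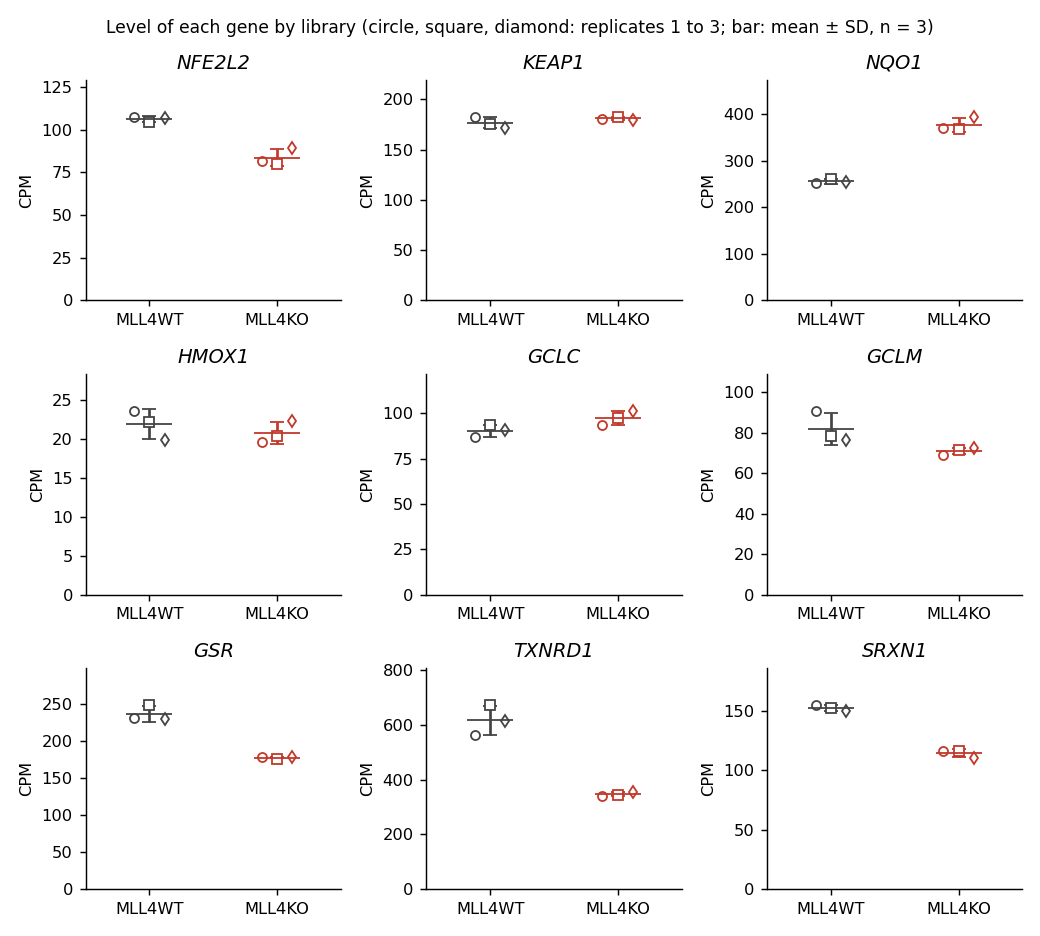
Level of each of the 9 genes (y axis, CPM, starting at 0) in the 3 MLL4WT and 3 MLL4KO libraries (points), with the mean and SD of each group (n = 3). The MLL4KO libraries lie below all MLL4WT libraries for NFE2L2, GCLM, GSR, TXNRD1 and SRXN1, above them for NQO1 and GCLC, and among them for KEAP1 and HMOX1.

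NFE2L2, which encodes NRF2 itself (ENSG00000116044, GRCh38 chromosome 2, 177227595 to 177392697), measured 108, 104 and 107 CPM in wild-type cells, against 81.5, 80.2 and 89.1 CPM in the knockout. Every MLL4KO library was below every MLL4WT library. The transcript fell 1.27-fold (group means of 106 ± 1.75 and 83.6 ± 4.84 CPM, SD, n = 3; log2 fold change -0.35 ± 0.05 SE, adjusted p = 0.000285 by edgeR). KEAP1, the sensor that holds NRF2 back (ENSG00000079999, chromosome 19, 10486120 to 10503741), measured 182, 176 and 172 CPM in wild-type cells, against 181, 183 and 179 CPM in the knockout. The groups overlapped, and the difference was not called (log2 0.04 ± 0.04, adjusted p = 0.515 by edgeR). KEAP1 passed upward only once GC and length trends were taken out (log2 0.16, adjusted p = 0.00441 by edgeR), an alternative chosen after seeing the data. NFE2L2 shares 1054 exon bases with the transcript AC019080.1 on the same strand, which had 308 counts over all libraries, and 54 exon bases with AGPS on the opposite strand, which had 12087. Reads of the shared bases are uncertain.

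The ratio of NFE2L2 to KEAP1 counts within a library, which no scaling enters, was 0.59, 0.595 and 0.623 in MLL4WT and 0.451, 0.438 and 0.497 in MLL4KO. The 2 groups did not overlap (log2 difference -0.39, exact two-sided permutation p = 0.1, the smallest that 3 against 3 libraries can give).

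NQO1, a quinone reductase that is the usual readout of NRF2 activity (ENSG00000181019, chromosome 16, 69706996 to 69726951), measured 252, 261 and 255 CPM in wild-type cells, against 370, 369 and 396 CPM in the knockout. All MLL4KO libraries were above all MLL4WT libraries, and NQO1 was the 1 gene of the 9 that rose. It rose 1.48-fold (group means of 256 ± 4.66 and 378 ± 15.2 CPM, SD, n = 3; log2 0.56 ± 0.05, adjusted p = 1.97e-06 by edgeR). HMOX1, the inducible heme oxygenase that opens the heme ring (ENSG00000100292, chromosome 22, 35380361 to 35394214), measured 23.6, 22.2 and 19.8 CPM in wild-type cells, against 19.6, 20.4 and 22.3 CPM in the knockout. Its groups overlapped (log2 -0.06 ± 0.09, adjusted p = 0.633 by edgeR).

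Of the 3 glutathione genes 2 fell. GCLC, the catalytic subunit of the glutamate cysteine ligase that starts glutathione synthesis (ENSG00000001084, chromosome 6, 53497341 to 53616970), measured 86.6, 93.3 and 91 CPM in wild-type cells, against 93.6, 97.5 and 101 CPM in the knockout. The groups were separated by a narrow gap, and the difference was not called (log2 0.10 ± 0.05, adjusted p = 0.132 by edgeR). It passed upward with total counts alone (log2 0.17, adjusted p = 0.0197 by edgeR) and with upper quartile factors (log2 0.16, adjusted p = 0.0254 by edgeR).

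GCLM, the modifier subunit of the same ligase (ENSG00000023909, chromosome 1, 93885205 to 93909456), measured 90.8, 78.1 and 76.4 CPM in wild-type cells, against 69, 71.3 and 72.3 CPM in the knockout. MLL4WT replicate 1, the shallowest library, was the highest. GCLM fell 1.14-fold (group means of 81.8 ± 7.84 and 70.9 ± 1.68 CPM, log2 -0.19 ± 0.06, adjusted p = 0.0312 by edgeR). This call was near the threshold and was lost in 8 of the 17 alternatives, with log2 values between -0.22 and -0.13 and adjusted p between 0.0521 and 0.143: with total counts or upper quartile factors, with the DESeq2 Wald test, after thinning all libraries to the shallowest, and without MLL4WT replicate 2 or any 1 of the MLL4KO replicates. Without MLL4WT replicate 1 the value moved to -0.12 (adjusted p = 0.0333 by edgeR). The ratio of GCLC to GCLM counts was 0.954, 1.19 and 1.19 in MLL4WT and 1.36, 1.37 and 1.4 in MLL4KO, again without overlap (log2 difference 0.31, exact two-sided permutation p = 0.1, the smallest possible).

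GSR, glutathione reductase, which uses NADPH to return oxidised glutathione to its reduced form (ENSG00000104687, chromosome 8, 30678061 to 30727999), measured 232, 249 and 230 CPM in wild-type cells, against 178, 176 and 178 CPM in the knockout. The MLL4KO libraries lay within a few CPM of each other and below all MLL4WT libraries. GSR fell 1.33-fold (group means of 237 ± 10.5 and 178 ± 1.15 CPM, log2 -0.42 ± 0.05, adjusted p = 2.33e-05 by edgeR). Among the 100 tested genes nearest to GSR on its chromosome the median log2 fold change was -0.02.

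Both thioredoxin system genes fell. TXNRD1, the cytosolic selenoprotein that reduces thioredoxin with NADPH (ENSG00000198431, chromosome 12, 104215779 to 104350305), measured 565, 674 and 613 CPM in wild-type cells, against 341, 345 and 354 CPM in the knockout. The MLL4WT libraries were spread more widely than the MLL4KO libraries, and the groups were far apart. TXNRD1 fell 1.78-fold (group means of 617 ± 54.3 and 347 ± 6.49 CPM, log2 -0.83 ± 0.06, adjusted p = 7.09e-07 by edgeR), the largest change among the 9 genes in either direction. SRXN1, sulfiredoxin, which repairs overoxidised peroxiredoxins (ENSG00000271303, chromosome 20, 646615 to 653370), measured 155, 153 and 150 CPM in wild-type cells, against 117, 117 and 111 CPM in the knockout. All MLL4KO libraries were below all MLL4WT libraries. It fell 1.33-fold (group means of 153 ± 2.66 and 115 ± 3.42 CPM, log2 -0.41 ± 0.05, adjusted p = 2.66e-05 by edgeR). SRXN1 shares 2292 exon bases with the annotated gene AL121758.1 on the same strand, which had 8 counts over all libraries.

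NQO1 and TXNRD1, both NADPH-dependent reductases and both textbook NRF2 targets, thus moved in opposite directions. The ratio of NQO1 to TXNRD1 counts was 0.446, 0.388 and 0.415 in MLL4WT and 1.08, 1.07 and 1.12 in MLL4KO. Its log2 difference was 1.39, with no overlap (exact two-sided permutation p = 0.1, the smallest possible). With the 3 ratios adjusted together by Benjamini-Hochberg the p-value of each stays at 0.1. The 3 pairs of genes were chosen after their values were seen. NQO1 and TXNRD1 each separated the groups, in opposite directions, as did GCLC and GCLM. The separation of those ratios and their p-value were therefore settled by the levels already given. The NFE2L2 to KEAP1 ratio likewise restates levels given above, so the ratios add no separate support.

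**Figure D2:**
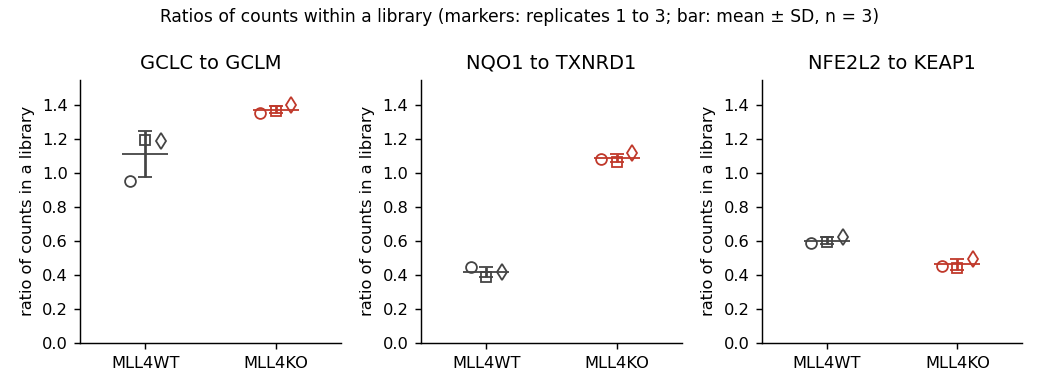
Ratio of counts of 2 genes within a library (y axis, from 0, no unit) in the 3 MLL4WT and 3 MLL4KO libraries (points), with mean and SD (n = 3). GCLC to GCLM and NQO1 to TXNRD1 are higher in every MLL4KO library than in any MLL4WT library, and NFE2L2 to KEAP1 is lower.

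The antioxidant response element is the DNA word that NRF2 binds, and the sequences are shown to set the start of the gene that fell most, TXNRD1, beside those of NFE2L2 and the 2 ligase genes. Its core, TGACNNNGC, was searched on both strands of the RefSeq promoter windows (GRCh38.p14), 300 bases from 250 before a start to 50 after it. The search reported here covers 10 windows of 7 of the genes. No window was found for HMOX1, and none is shown for GSR. GSR also fell, and whether its promoter holds the core was not tested. The core was in 4 windows of 3 genes (KEAP1, GCLM and TXNRD1), and in 13.3% of all 35116 windows. None of the 6 matches contains the AP-1 site TGACTCA, with which the core can overlap. Elements farther from the start lie outside these windows. Among the genes that fell, TXNRD1 has a match at each of its starts and GCLM has 1, while NFE2L2 and SRXN1, which both fell by more than GCLM, have none. NQO1, which rose, and GCLC have none either. For comparison, the 150 bases before the start of these 4 genes are shown 5′ to 3′ on the strand of the gene, with a match in capitals (a match on the opposite strand appears as its reverse complement). The end of the first TXNRD1 stretch cuts off a further match that is given after it. They lie at chr12:104215629-104215778 (TXNRD1, plus strand, first start), chr1:93909431-93909580 (GCLM, minus strand), chr6:53545102-53545251 (GCLC, minus strand) and chr2:177264132-177264281 (NFE2L2, minus strand, downstream of its other listed start).
TXNRD1: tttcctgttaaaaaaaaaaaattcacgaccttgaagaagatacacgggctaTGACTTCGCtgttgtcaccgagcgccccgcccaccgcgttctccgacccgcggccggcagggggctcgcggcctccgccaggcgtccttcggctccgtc
GCLM: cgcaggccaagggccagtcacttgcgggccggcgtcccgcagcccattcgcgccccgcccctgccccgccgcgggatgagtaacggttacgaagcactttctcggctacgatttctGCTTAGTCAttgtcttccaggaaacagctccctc
GCLC: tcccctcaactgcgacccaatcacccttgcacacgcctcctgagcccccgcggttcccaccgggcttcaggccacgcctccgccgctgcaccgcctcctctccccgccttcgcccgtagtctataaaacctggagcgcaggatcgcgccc
NFE2L2: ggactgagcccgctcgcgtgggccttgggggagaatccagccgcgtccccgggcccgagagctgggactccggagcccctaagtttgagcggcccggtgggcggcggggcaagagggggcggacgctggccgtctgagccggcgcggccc

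The remaining matches are shown as the core in capitals with 10 bases on each side. The second TXNRD1 start has 1 match, at chr12:104286920-104286948, and the first has another that crosses the start, at chr12:104215761-104215789. The second KEAP1 start, on the minus strand, has 2, at chr19:10502807-10502835 and chr19:10502784-10502812, the latter with the same TGACTAAGC core as GCLM, while KEAP1 RNA was not called. A match is a run of letters, and binding was not measured.
TXNRD1 second start: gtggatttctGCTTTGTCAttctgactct
TXNRD1 across the first start: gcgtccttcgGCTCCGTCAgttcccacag
KEAP1 match on the strand of the gene: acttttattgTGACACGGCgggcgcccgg
KEAP1 match on the opposite strand: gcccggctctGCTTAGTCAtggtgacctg

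Levels can be set against each other only per length. In CPM per kilobase of merged exons (GENCODE release 29), the order in MLL4WT was TXNRD1 (92), NQO1 (78.7), GSR (62.9), SRXN1 (56.6), KEAP1 (46.9), NFE2L2 (17.8), GCLM (15.1), GCLC (10.4) and HMOX1 (9.09). In MLL4KO, NQO1 came first (116), followed by TXNRD1 (51.7), KEAP1 (48.1), GSR (47.2) and SRXN1 (42.5). These lengths merge all annotated exons, so the order of close neighbours depends on which transcripts the cells make.

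Codes in the column names that have the form of flow cells, which the labels do not describe, placed MLL4WT replicate 1 alone. One code held 1 library of each genotype and another held 1 MLL4WT and 2 MLL4KO libraries. Within these 2 codes, the log2 difference of TXNRD1 was -0.85 and -0.95, that of NQO1 0.54 and 0.55, that of GSR -0.37 and -0.49, that of SRXN1 -0.36 and -0.42, that of NFE2L2 -0.39 and -0.30, and that of GCLM -0.15 and -0.12. Each called gene kept its direction within both codes. This was settled beforehand, because the groups of these genes did not overlap in any library, so it is no check on the codes.

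**Figure D3:**
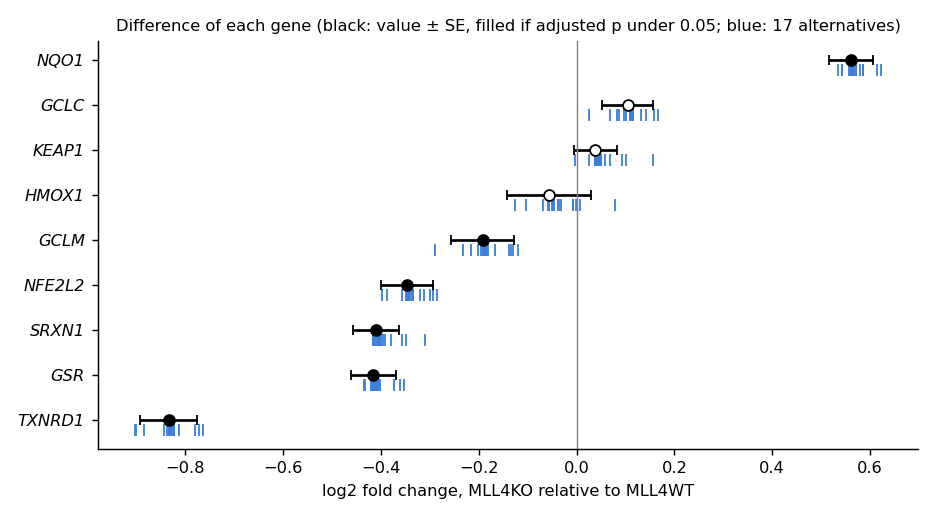
Log2 fold change of MLL4KO relative to MLL4WT for each of the 9 genes (x axis), with its SE (black bars; filled points passed the edgeR test) and the values under 17 alternatives (blue ticks). The ticks of NQO1 stay between 0.53 and 0.62 and those of TXNRD1 between -0.90 and -0.76, while those of HMOX1 and KEAP1 reach both sides of 0.

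A list made for the control of NRF2 held 21 other genes, of which 7 rose, 6 fell and 8 were not called. Of all tested genes 19.8% rose and 21.6% fell. The list median was -0.02 on the log2 scale. The list also holds the related factors NFE2L1, BACH2 and NFE2L3, the last among those that rose, and NRF1, a factor of similar name. Its members thus do not all control NRF2. Without MLL4KO replicate 2 the number that rose was 4. The small MAF genes, which encode the partners NRF2 needs to bind DNA, were lower in all 3 cases. MAFK measured 38.9, 39.1 and 39.1 CPM in wild-type cells, against 21.1, 18.5 and 20.5 CPM in the knockout, a 1.95-fold fall (log2 -0.96 ± 0.07, adjusted p = 9.56e-07 by edgeR). The tested genes around MAFK had a median of -0.18. MAFF fell 1.57-fold (group means of 16.2 ± 1.06 and 10.2 ± 1.09 CPM, adjusted p = 0.000502 by edgeR). MAFG, named after its values were seen, fell 1.2-fold (group means of 127 ± 2.82 and 106 ± 4.88 CPM, adjusted p = 0.00124 by edgeR).

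Genes of NRF2 turnover went both ways. SQSTM1, an autophagy adaptor that competes for KEAP1 and is itself an NRF2 target, fell 1.35-fold (group means of 357 ± 17.2 and 265 ± 5.23 CPM, adjusted p = 2.07e-05 by edgeR). CUL3, the scaffold of the ligase that ubiquitinates NRF2, rose 1.15-fold (adjusted p = 0.0115 by edgeR), which failed once the GC and length trends were taken out (log2 0.06, adjusted p = 0.289 by edgeR). GSK3B, a kinase of the KEAP1-independent route, rose 1.34-fold (group means of 84.5 ± 2.03 and 113 ± 3.17 CPM), BTRC, the F-box protein of that route, rose 1.16-fold, and the related kinase gene GSK3A fell 1.23-fold (adjusted p between 2.76e-05 and 0.00673 by edgeR). CHD6, a chromatin remodeller gene, rose 1.27-fold (adjusted p = 0.001 by edgeR). BACH1, the repressor that competes with NRF2 for the element, lies on chromosome 21, where 100 of 147 tested genes rose. Its means were 61.7 ± 3.55 CPM with MLL4 and 56.5 ± 2.67 CPM without it, and the groups overlapped (log2 -0.14, adjusted p = 0.0862 by edgeR, between 0.000965 and 0.37 over the alternatives), beside a median of 0.53 for its tested neighbours, and it was named after its values were seen.

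Other NRF2 targets were mostly lower: of 35 listed, 31 were tested, 18 fell, 2 rose and 11 were not called, at a median of -0.21. Over all tested genes 21.6% fell and 19.8% rose. Without MLL4WT replicate 3 or MLL4KO replicate 2, 1 rose. The number that fell was 14 without MLL4WT replicate 2, and also without MLL4KO replicate 2 or 3. It was 15 with total counts alone, with upper quartile factors and with the DESeq2 Wald test. ABCC2, an efflux pump for glutathione conjugates, measured 88, 98.7 and 103 CPM in wild-type cells, against 2.84, 3.33 and 2.66 CPM in the knockout, a fall of 33-fold (log2 -5.04 ± 0.10, adjusted p = 1.54e-11 by edgeR). The related pump gene ABCC3 fell 2.34-fold (group means of 31 ± 1.23 and 13.1 ± 1.53 CPM, adjusted p = 8.42e-07 by edgeR). SLC7A11, the cystine carrier that supplies cysteine for glutathione, fell 2.74-fold (group means of 54.8 ± 4.42 and 20.1 ± 0.934 CPM, adjusted p = 4.86e-08 by edgeR), and FTH1, the ferritin heavy chain, fell 1.68-fold (group means of 1083 ± 36.6 and 643 ± 18.4 CPM, adjusted p = 1.83e-07 by edgeR). FTH1 has processed copies elsewhere in the genome, so its count is uncertain. NQO2, the paralogue of NQO1, named after its values were seen, fell 1.48-fold (group means of 46.1 ± 2.52 and 31.3 ± 1.90 CPM, adjusted p = 5.32e-05 by edgeR), against the direction of NQO1. The 2 that rose were FECH, which puts iron into heme (1.22-fold, adjusted p = 0.000984 by edgeR), and the carbonyl reductase gene CBR3 on chromosome 21 (1.73-fold, from 2.43 ± 0.676 to 4.1 ± 0.251 CPM, adjusted p = 0.0151 by edgeR). The CBR3 call was lost without MLL4WT replicate 3, without MLL4KO replicate 2 and after thinning (log2 between 0.53 and 0.81, adjusted p between 0.0625 and 0.0722).

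**Figure D4:**
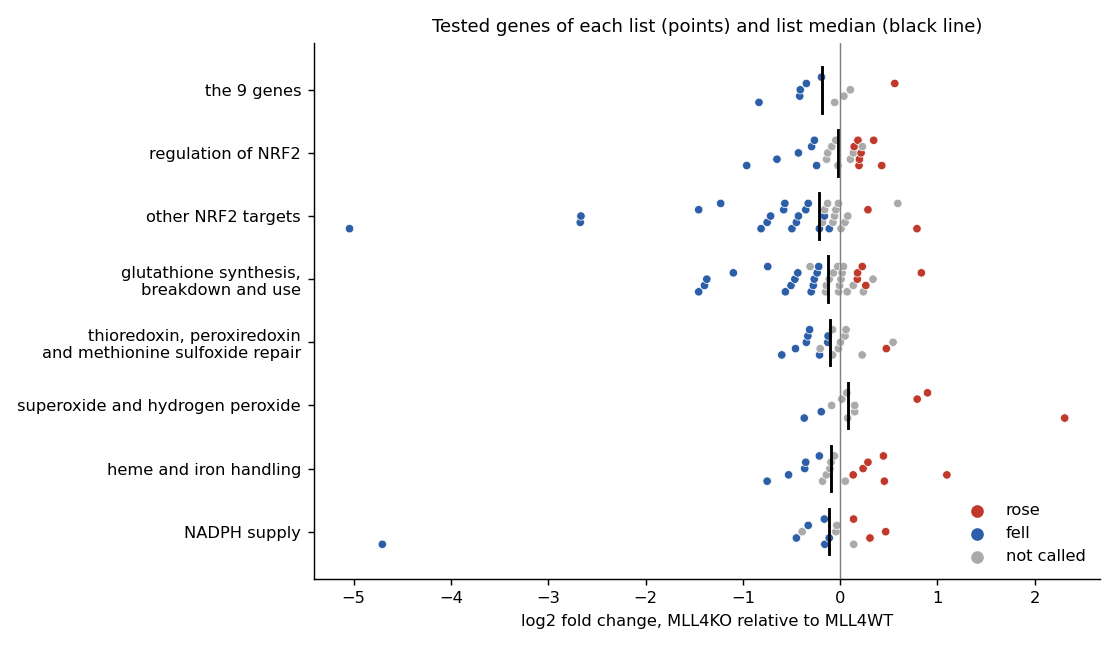
Log2 fold change of MLL4KO relative to MLL4WT (x axis) for the tested genes of the 9-gene set and of 7 related lists (points, coloured by the edgeR call), with the list median (black line). The other NRF2 targets have 18 points that fell and 2 that rose, and the point near -5 is ABCC2.

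Of 34 tested genes that make, break down or use glutathione, 14 fell, 5 rose and 15 were not called, at a median of -0.13. The shares over all tested genes were 21.6% that fell and 19.8% that rose. The number that rose was 8 without MLL4WT replicate 1 and 3 without MLL4WT replicate 3 or MLL4KO replicate 1. The number that fell was 10 without MLL4KO replicate 1 and 11 without MLL4WT replicate 2. OPLAH, which recycles oxoproline on the way back to glutamate (chromosome 8, in a stretch of 8q whose tested genes around it had a median of -0.14), fell 2.59-fold (group means of 31.4 ± 3.20 and 11.9 ± 1.78 CPM), and GGT1, which cleaves glutathione outside the cell, fell 2.63-fold (group means of 7.71 ± 0.569 and 2.94 ± 0.408 CPM, adjusted p = 2.20e-06 and 2.84e-05 by edgeR). GGT1 has near-identical relatives, so its count is uncertain. SLC3A2, the partner chain of SLC7A11, fell 1.35-fold (adjusted p = 8.80e-06 by edgeR). GLRX, a glutaredoxin that removes glutathione from proteins, rose 1.78-fold (group means of 12.6 ± 1.08 and 22.8 ± 1.75 CPM, adjusted p = 2.46e-05 by edgeR). LANCL1 rose 1.17-fold, the glyoxalase gene GLO1 1.13-fold and the transferase gene GSTO2 1.13-fold (adjusted p between 0.00198 and 0.0147 by edgeR), and the GSTO2 call was lost without MLL4WT replicate 3, without MLL4KO replicate 1 and with GC and length trends removed.

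Around TXNRD1, 8 of 18 genes of thioredoxins, peroxiredoxins and methionine sulfoxide repair fell, 1 rose and 9 were not called, at a median of -0.10. Over all tested genes 21.6% fell and 19.8% rose. With total counts alone 4 fell, and the number that fell was 4 or 5 when any 1 library other than MLL4WT replicate 1 was left out. The mitochondrial pair split. TXN2, mitochondrial thioredoxin, fell 1.52-fold (group means of 89.5 ± 7.04 and 58.5 ± 2.68 CPM), while TXNRD2, the mitochondrial reductase, rose 1.39-fold (group means of 25.7 ± 0.628 and 35.8 ± 1.56 CPM, adjusted p = 1.68e-05 and 0.000158 by edgeR). The peroxiredoxin gene PRDX4 fell 1.24-fold, the selenoprotein gene SELENOW 1.27-fold and the repair enzyme gene MSRB3 1.26-fold (adjusted p between 0.000435 and 0.00261 by edgeR).

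Of 11 tested genes that handle superoxide and hydrogen peroxide, 3 rose, 2 fell and 6 were not called, at a median of 0.077. These counts stand beside 19.8% that rose and 21.6% that fell of all tested genes. Without MLL4WT replicate 3 or MLL4KO replicate 2 the number that fell was 1, and without MLL4KO replicate 3 it was 0. SOD1, cytosolic superoxide dismutase on chromosome 21, rose 1.73-fold (group means of 284 ± 43.3 and 494 ± 5.73 CPM, adjusted p = 0.000279 by edgeR), beside a median log2 fold change of 0.52 for its tested neighbours. The sestrin genes SESN3, at 1.43 ± 0.602 and 6.51 ± 0.705 CPM, and SESN1 rose as well (adjusted p = 1.28e-05 and 0.000181 by edgeR). CYBA and NOXO1, subunits of NADPH oxidases, fell 1.14-fold and 1.29-fold (adjusted p = 0.00843 and 0.0367 by edgeR), and with total counts alone neither was called. The NOXO1 call was lost in 8 of the 17 alternatives (adjusted p between 0.0714 and 0.229), without MLL4WT replicate 3 and without MLL4KO replicate 2 or 3 among them. The CYBA call was lost in 3, also without MLL4KO replicate 3 and with GC and length trends removed (log2 between -0.17 and -0.06, adjusted p between 0.055 and 0.25).

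In heme and iron handling, the pathway of HMOX1, 6 of 17 tested genes rose, 5 fell and 6 were not called, at a median of -0.094. The shares over all tested genes were 19.8% that rose and 21.6% that fell. CPOX, a late enzyme of heme synthesis, rose 2.14-fold (group means of 225 ± 7.18 and 481 ± 2.26 CPM, adjusted p = 5.23e-09 by edgeR), and the heme exporter gene FLVCR1 rose 1.36-fold (adjusted p = 0.000158 by edgeR). ACO1, the iron regulatory aconitase, rose 1.37-fold (adjusted p = 2.80e-05 by edgeR). HMOX2, the constitutive heme oxygenase, fell to 52.8 ± 1.46 from 75.7 ± 5.22 CPM (adjusted p = 2.54e-05 by edgeR), as did ALAS1, the first enzyme of heme synthesis (1.29-fold), and FTL, the ferritin light chain (1.28-fold, adjusted p = 0.000126 and 0.000867 by edgeR).

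NADPH feeds NQO1, GSR and TXNRD1, and of 13 tested genes that supply it 6 fell, 3 rose and 4 were not called, at a median of -0.11. Over all tested genes 21.6% fell and 19.8% rose. With total counts alone 3 of the 13 fell and 4 rose. The number that fell was also 3 when MLL4WT replicate 3, or either of MLL4KO replicates 2 and 3, was left out. TKT, transketolase of the pentose phosphate pathway, fell 1.26-fold (adjusted p = 0.000269 by edgeR). ALDH1L1, a folate enzyme that yields NADPH, had 165 counts in all with MLL4 and 8 in all without it (log2 -4.71 ± 0.36, adjusted p = 1.22e-06 by edgeR). IDH1, the cytosolic isocitrate dehydrogenase, rose 1.38-fold (group means of 82.4 ± 5.55 and 115 ± 4.02 CPM), and its mitochondrial counterpart IDH2 rose 1.24-fold (adjusted p = 4.87e-05 and 0.0027 by edgeR). ME1 fell 1.12-fold and NADK rose 1.1-fold (adjusted p = 0.017 and 0.0494 by edgeR), and each call was lost in 8 of the 17 alternatives.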

How the data were processed

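RNA-seq of 3 MLL4WT and 3 MLL4KO libraries was used, with genotype and replicate from the sample titles. The deposited values are whole numbers per gene with 1 column for each library. The tool that made them is not stated, and these deposited values were taken to be expected counts without normalisation, from the values and because the submitters' processing notes name Salmon. Salmon 1.8.0, DESeq2 1.44.0 and hg38 are named there without a role, and for the annotation release the sources used here give nothing. Strand is not stated, so antisense reads cannot be told apart. Symbols came from a table that held 55764 of 59715 IDs, and coordinates from GENCODE release 29.

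Genes were filtered with filterByExpr, scaled by TMM and tested with the quasi-likelihood test of edgeR 4.0.16 in R 4.3.3 (robust, no covariate, 4 residual degrees of freedom), with Benjamini-Hochberg adjustment over all 14543 tested genes, and the script was tested on simulated data. A gene rose or fell at an adjusted p under 0.05. Standard errors come from the F statistic. Library depth put 3 counts at 0.446 CPM in the shallowest library and at 0.149 CPM in the deepest. Alternatives were other scalings and filters, DESeq2 1.42.0, limma-voom (limma 3.58.1), a replicate block, a flow cell term, thinning and leaving out each library, and, added after seeing the data, removal of GC and length trends by lowess.

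The genes and lists were chosen with earlier results of these data known. Named outside the 9 genes are, per list, up to 4 called genes in each direction with the smallest adjusted p and at least 1 CPM. GSTT1 was not matched to an ID. A gene that this rule names is not reported here.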

Additional observations from a re-analysis of the deposited data

How the results depend on the processing

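The count of called genes over the table stayed within 1.5 times of 6021 in all 17 alternatives, and NQO1, NFE2L2, GSR, TXNRD1 and SRXN1 passed in each of them. Of the 9 genes, 5 to 7 were called. The direction turned, without passing the test, for KEAP1 after thinning (log2 -0.0033), and for HMOX1 with total counts alone (log2 0.00607) and with GC and length trends removed (log2 0.078). The cause was not tested. The replicate numbers paired no libraries, with correlations of deviations of 0.025, 0.034 and -0.015 for the same numbers, and with the replicate block 5713 genes and 6 of the 9 were called, and of the thioredoxin and peroxiredoxin list 5 fell in place of 8. Without MLL4WT replicate 1 the log2 difference of the GCLC to GCLM ratio moved from 0.31 to 0.21. Of 44 further genes chosen by the rule, 37 were called under every alternative. In the shallowest library 3 counts are 0.446 CPM, which limits low genes such as ALDH1L1.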
